A study of Mus musculus with 12 samples.

Results

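The 10 genes described here carry calcium through each beat of the heart muscle cell. They were chosen by name as members of the cardiomyocyte's calcium cycle and were Ryr2, Atp2a2, Pln, Casq2, Cacna1c, Slc8a1, Camk2d, Jph2, Hrc and Trdn, 10 of the 53465 genes in the deposited table. All 10 were found under these symbols, all 10 passed the filter on low counts, and each was measured in all 12 libraries. The libraries came from hearts of male C57BL/6J mice in 4 groups of 3 mice by the study's text. The labels give the tissue as heart, the study's text places the samples in the left ventricle, and the 5 atrial markers summed to between 343 and 8299.8 CPM (counts scaled to a common library size) over the libraries. A17fl/fl + NS and A17fl/fl + DOX were littermates with a floxed Adam17 gene and no Cre, given normal saline or doxorubicin, an anthracycline used against cancer. A17α-MHCKO + NS and A17α-MHCKO + DOX carried the same floxed alleles together with Cre under the α-MHC promoter, which is active in cardiomyocytes, so other heart cells kept Adam17. Doxorubicin was injected intraperitoneally at 5 mg/kg on 4 occasions from day 0 to day 21, 20 mg/kg in all, starting at 8 weeks of age, and hearts were taken 4 weeks after the last injection. There was no group with Cre alone, so Cre and the deletion cannot be told apart.

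In the cardiomyocyte, calcium enters through the L-type channel of the T-tubule and opens ryanodine receptors of the sarcoplasmic reticulum, and the larger amount of calcium released by them starts contraction. For relaxation the pump SERCA2a takes most of it back into the reticulum, held in check by phospholamban, while the sodium/calcium exchanger moves the rest out of the cell. Calsequestrin binds calcium inside the store, triadin ties it to the receptor, junctophilin holds the store against the T-tubule, and the kinase CaMKII phosphorylates the receptor, the channel and phospholamban.

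Promoter windows were taken for 3 members on which the comparisons turn, the release channel gene Ryr2, the phospholamban gene Pln and the exchanger gene Slc8a1. RefSeq windows from the GRCm38.p6 build were listed for 8 of the 10 members, with 11 starts in all, and none was listed for Atp2a2 or Trdn. Each window held 300 bases, 250 before and 50 from the listed start, and is given 5′ to 3′ on the gene's own strand, at chr13:12106896-12107195 on the minus strand for Ryr2, chr10:53337436-53337735 on the plus strand for Pln and chr17:81738338-81738637 on the minus strand for Slc8a1. Capitals mark matches on either strand to the TATA box (letters TATAAA), the GATA motif (letters GATAA), the CCAAT box, the MEF2 site or the SRF CArG box, none of which overlapped another in these windows.
Ryr2: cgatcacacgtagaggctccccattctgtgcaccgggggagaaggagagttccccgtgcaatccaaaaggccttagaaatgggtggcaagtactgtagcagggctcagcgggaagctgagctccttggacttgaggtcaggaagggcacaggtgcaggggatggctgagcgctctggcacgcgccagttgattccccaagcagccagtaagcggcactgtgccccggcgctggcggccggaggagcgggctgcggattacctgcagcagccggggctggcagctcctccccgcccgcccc
Pln: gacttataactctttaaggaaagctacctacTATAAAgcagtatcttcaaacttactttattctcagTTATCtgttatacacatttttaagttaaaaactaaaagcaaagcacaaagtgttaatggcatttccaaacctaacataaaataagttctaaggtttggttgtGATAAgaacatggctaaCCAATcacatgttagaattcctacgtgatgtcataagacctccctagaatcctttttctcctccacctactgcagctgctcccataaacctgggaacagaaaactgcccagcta
Slc8a1: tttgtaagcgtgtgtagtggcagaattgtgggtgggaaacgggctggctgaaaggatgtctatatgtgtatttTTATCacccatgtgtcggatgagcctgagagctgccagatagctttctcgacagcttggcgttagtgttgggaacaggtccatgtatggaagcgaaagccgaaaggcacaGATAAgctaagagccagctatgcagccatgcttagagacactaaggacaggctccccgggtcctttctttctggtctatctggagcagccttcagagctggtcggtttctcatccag
The Ryr2 window was 65.3% G and C and held none of the 5 motifs. The Pln window was 36% G and C and held the TATA box letters beginning 219 bases before the start, the GATA motif on both strands at 183 and 81 bases before it, and the CCAAT box at 64 bases before it. The Slc8a1 window was 50.7% G and C and held the GATA motif on both strands, at 177 and 67 bases before the start. Of 32851 RefSeq windows of this length, 25.4% held the GATA motif, 37.4% the CCAAT box, 13.6% the TATA box, 3.19% the MEF2 site and 1.63% the CArG box. These matches are letters in a window and were not tested as sites of any factor.

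Values are CPM scaled with the TMM factors of edgeR, and error is the standard deviation over the 3 mice of a group unless a standard error (SE) is named. Total counts were between 15950717 and 21725076 per library. Adam17 itself, the deleted gene, was at 54.4 ± 14.5 CPM in A17fl/fl + NS, 49.9 ± 2.88 in A17fl/fl + DOX, 34.8 ± 0.579 in A17α-MHCKO + NS and 32.3 ± 4.45 in A17α-MHCKO + DOX (n = 3 each), and every knockout library was below every A17fl/fl library. Over both treatments it was lower by 35.7% in the knockout (exact permutation test within treatment, two-sided, p = 0.005, the smallest that 6 mice against 6 can give this way). One library stood apart from the rest, A17fl/fl + NS replicate 1. On the first principal component it lay at -120 and the other 11 between -12.9 and 28.4. Its 8 cardiomyocyte markers summed to 19046 CPM, against 30440 to 48046 in the others, its 6 fibroblast markers to 8544 against 1263 to 2791, and its 5 neutrophil markers to 2211 against 5.21 to 65.0. The fibroblast markers did not all go 1 way. Col1a1, Col1a2, Col3a1 and Pdgfra were at their highest there. Dcn, at 959 CPM, lay within the range of the others, 627 to 964, and Lum, at 69.2 CPM, was at its lowest. The 10 calcium genes took 0.724% of the counts of A17fl/fl + NS replicate 1 and between 0.978% and 1.63% elsewhere. Of the 5 atrial markers, Nppa was the largest part of the sum in every library. Myl7, another of them, was at 0 CPM in A17fl/fl + NS replicate 1, at 0.0626 in replicate 3 of that group and at 125 to 1019 in the others. The part of these markers in the results was not tested, and in tissue fewer cardiomyocytes and less RNA per cardiomyocyte cannot be told apart. The 10 genes' fold changes that use this library are therefore given with and without it, and for ratios and wider genes the values without it are named.

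**Figure D1:**
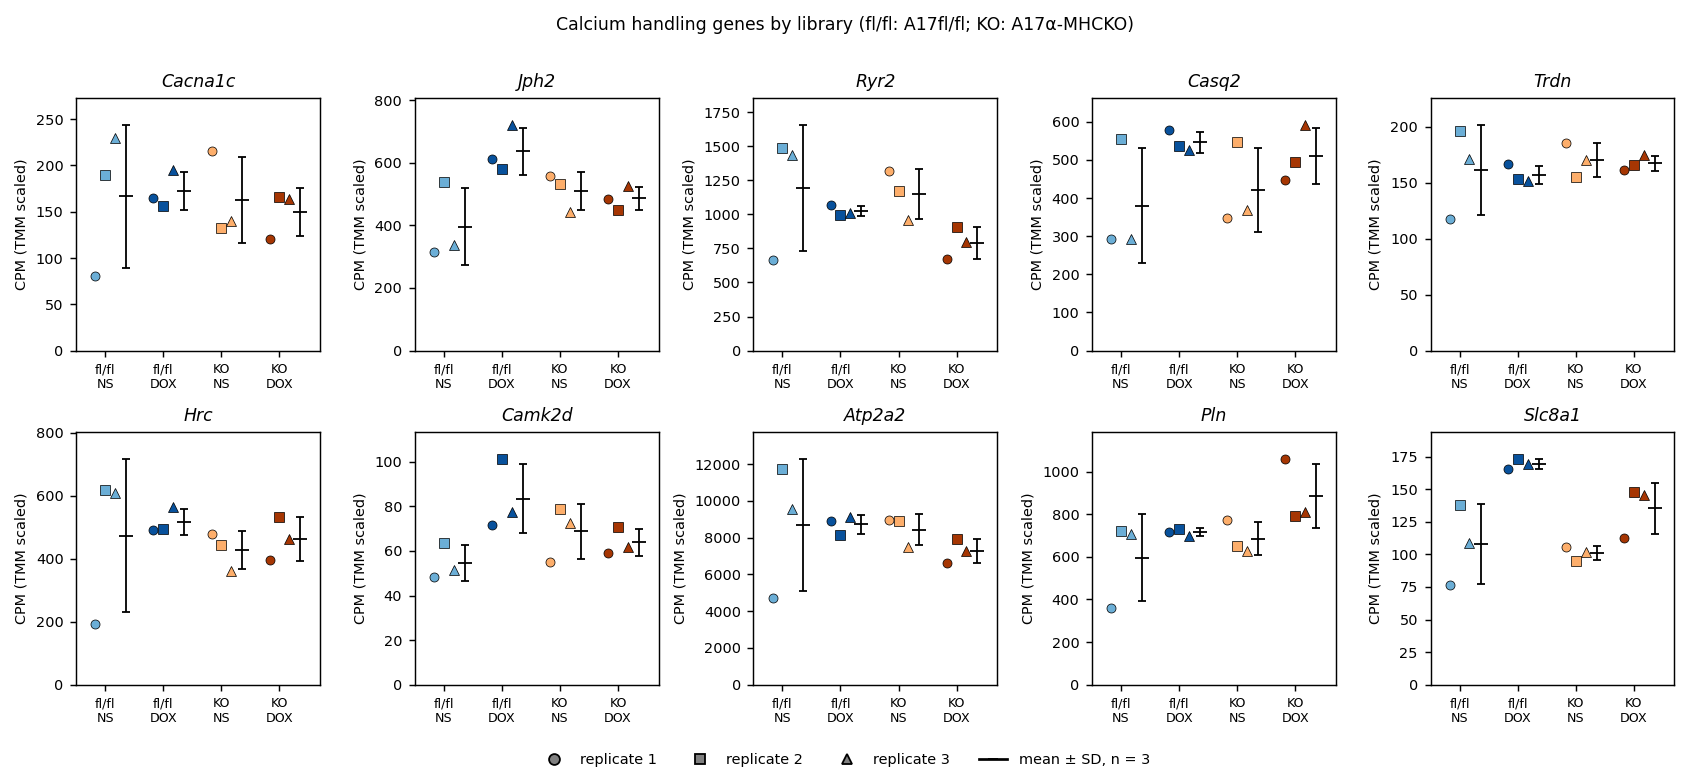
Level of each calcium handling gene in each library, in TMM-scaled CPM on an axis from 0, by group (fl/fl, A17fl/fl; KO, A17α-MHCKO). Marker shapes give the replicate number, and bars give the mean ± SD of 3 mice. The lowest A17fl/fl + NS point is replicate 1 in 9 of the 10 panels, and for Casq2 replicate 3 lies beside it at 293 CPM.

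Calcium entry and the junction are described first. Cacna1c (ENSMUSG00000051331) encodes the pore of the L-type channel. It was at 80.5, 189 and 230 CPM in A17fl/fl + NS replicates 1, 2 and 3, at 165, 156 and 195 in A17fl/fl + DOX, at 216, 133 and 140 in A17α-MHCKO + NS, and at 120.0, 166 and 164 in A17α-MHCKO + DOX. The groups overlapped in every comparison, and the mean of no group left the range of 149.7 to 172. Jph2 (ENSMUSG00000017817) encodes junctophilin 2, which spans from the store to the T-tubule. Jph2 stood at 313, 538 and 337 CPM in A17fl/fl + NS and at 611, 579 and 721 in A17fl/fl + DOX, without overlap, the lowest treated heart lying above the highest saline heart. In the knockout it was at 557, 532 and 443 CPM after saline and at 485, 450.0 and 524 after doxorubicin, so that those groups overlapped, and all 3 knockout hearts given doxorubicin were below all 3 A17fl/fl hearts given it.

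The genes of calcium release follow. Ryr2 (ENSMUSG00000021313), the release channel, was at 663, 1484 and 1436 CPM in A17fl/fl + NS and at 1065, 994 and 1012 in A17fl/fl + DOX. It was at 1320, 1174 and 956 CPM in A17α-MHCKO + NS and at 671, 907 and 799 in A17α-MHCKO + DOX. The knockout hearts given doxorubicin were below those given saline and below the A17fl/fl hearts given doxorubicin, without overlap in either comparison. In A17fl/fl the saline group lay on both sides of the treated group, with replicate 1 under it and the other 2 above it. Casq2 (ENSMUSG00000027861), the cardiac calsequestrin, was at 293, 555 and 293 CPM in A17fl/fl + NS, 578, 535 and 526 in A17fl/fl + DOX, 347, 548 and 369.6 in A17α-MHCKO + NS and 447, 494 and 592 in A17α-MHCKO + DOX. In both saline groups 1 heart was near the treated hearts and the other 2 were well below, and all groups overlapped. Trdn (ENSMUSG00000019787), triadin, varied least among the 10 over the 11 libraries other than A17fl/fl + NS replicate 1, between 152 and 196 CPM, and was at 117 in that library. Hrc (ENSMUSG00000038239), the histidine-rich calcium-binding protein of the store, was at 193 CPM in A17fl/fl + NS replicate 1 and at 620.0 and 608 in the other 2, with 493, 494 and 563 in A17fl/fl + DOX, 478, 445 and 362 in A17α-MHCKO + NS and 395, 532 and 462 in A17α-MHCKO + DOX. No other gene of the 10 was as low in replicate 1 relative to its own mean, and there the log2 level of Hrc was 1.23 below its mean over all libraries.

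The kinase gene was followed alongside them. Camk2d (ENSMUSG00000053819) encodes the main cardiac form of CaMKII. It was at 48.4, 63.7 and 51.5 CPM in A17fl/fl + NS and at 71.7, 101 and 77.4 in A17fl/fl + DOX, without overlap. In the knockout it was at 55.2, 78.9 and 72.5 CPM after saline and at 58.9, 70.7 and 61.9 after doxorubicin. The saline and treated knockout groups overlapped, and each of the 3 treated knockout hearts was below each of the 3 treated A17fl/fl hearts. Camk2d thus had the same ordering of groups as Jph2.

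Uptake into the store rests on 2 of the genes. Atp2a2 (ENSMUSG00000029467), which encodes SERCA2a, was the most abundant of the 10, at 4711, 11748 and 9545 CPM in A17fl/fl + NS, 8906, 8135 and 9134 in A17fl/fl + DOX, 8981, 8875 and 7461 in A17α-MHCKO + NS and 6595, 7940 and 7279 in A17α-MHCKO + DOX. After doxorubicin the knockout hearts were below the A17fl/fl hearts without overlap, and the other groups overlapped. Pln (ENSMUSG00000038583), which encodes the pump's inhibitor phospholamban, was at 360, 719 and 707 CPM in A17fl/fl + NS and at 717, 732 and 696 in A17fl/fl + DOX. It was at 772, 652 and 628 CPM in A17α-MHCKO + NS and at 1058, 789 and 812 in A17α-MHCKO + DOX, where all 3 hearts were above the knockout hearts given saline and above the A17fl/fl hearts given doxorubicin. In that group Atp2a2 was therefore at its lowest mean and Pln at its highest, 7272 ± 673 and 886 ± 149 CPM.

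The level of Pln relative to the pump gene was followed as its FPKM in percent of that of Atp2a2 within each library. It was 9.27, 7.43 and 8.99% in A17fl/fl + NS, 9.77, 10.9 and 9.26% in A17fl/fl + DOX, 10.4, 8.92 and 10.2% in A17α-MHCKO + NS and 19.5, 12.1 and 13.5% in A17α-MHCKO + DOX. The 3 knockout hearts given doxorubicin were above all 9 other hearts, and the library that stood apart lay within the range of the others, both genes being low in it. The ratio was 1.5-fold higher after doxorubicin than after saline in the knockout, and after doxorubicin 1.48-fold higher in the knockout than in A17fl/fl. Neither could pass a threshold of 0.05, since an exact permutation test of 3 against 3 cannot go below p = 0.1, the value both had. In A17fl/fl doxorubicin gave a ratio 1.17-fold higher, with overlap (exact permutation p = 0.2). Without A17fl/fl + NS replicate 1 the log2 difference in A17fl/fl went from 0.22 to 0.28, and those groups no longer overlapped. Over both genotypes the ratio was 1.32-fold higher with doxorubicin (exact permutation within genotype, p = 0.01), and over both treatments 1.31-fold higher in the knockout (exact permutation within treatment, p = 0.015). Leaving out A17α-MHCKO + DOX replicate 1, the heart with the highest ratio, took the log2 difference for doxorubicin in the knockout from 0.58 to 0.38 and that between treated genotypes from 0.56 to 0.36, again without overlap. Without A17fl/fl + NS replicate 1 the log2 difference over both genotypes went from 0.40 to 0.43 and that over both treatments from 0.38 to 0.41. Between the knockout groups the cardiomyocyte markers summed to 30440 to 37057 CPM after saline and 41416 to 45666 after doxorubicin. Actc1, Myl3 and Tcap were higher after doxorubicin without overlap, and the rest of the list overlapped. Myh6 was at 15259, 12962 and 12006 CPM after saline and at 10921, 14821 and 14595 after doxorubicin. Ttn was at 1822, 1429 and 1867 CPM after saline and at 894, 1729 and 1507 after doxorubicin. The atrial markers summed to 3776 to 8299.8 CPM after saline and to 1796 to 3956 after doxorubicin. The part of either list in the ratio was not tested. The ratio leaves out Sln, another regulator of the pump, and so does not give the total of inhibitor per pump. Sln was at 212, 365 and 343 CPM in A17α-MHCKO + NS and at 63.8, 65.0 and 151 in A17α-MHCKO + DOX. It was at 0, 392 and 0 CPM in A17fl/fl + NS and at 162, 93.1 and 75.6 in A17fl/fl + DOX. The ratio comparisons above are among 12 tests made on ratios, 6 for each pair of genes, and the p-values are not adjusted.

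**Figure D2:**
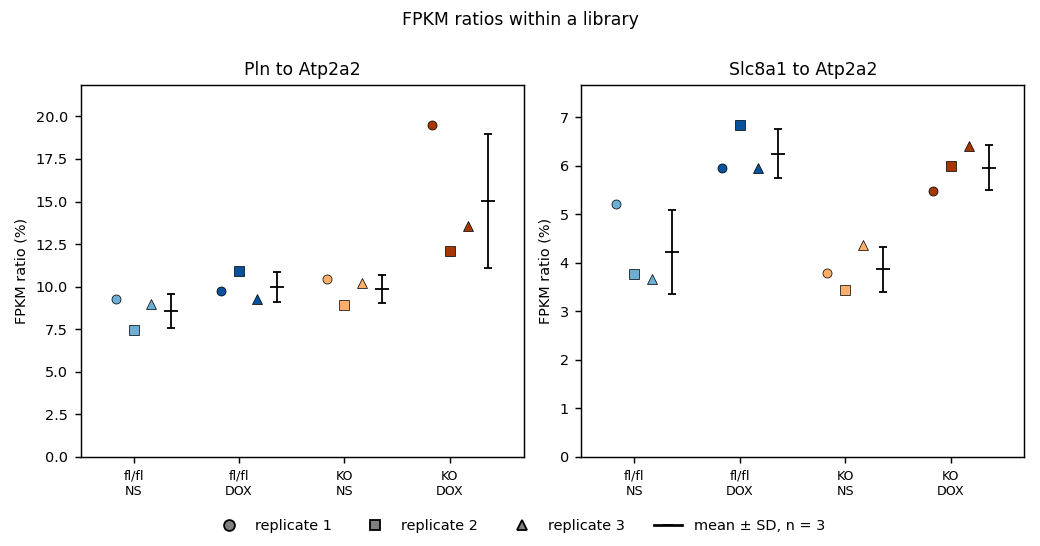
FPKM of Pln (left) and of Slc8a1 (right) in percent of the FPKM of Atp2a2 in the same library, by group (fl/fl, A17fl/fl; KO, A17α-MHCKO), with axes from 0. Points are single hearts, shapes give the replicate number and bars give the mean ± SD of 3. The Pln ratio is highest in the knockout given doxorubicin, at 12.1 to 19.5%, and the Slc8a1 ratio is higher after doxorubicin in both genotypes.

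Extrusion from the cell rests on 1 gene of the set. Slc8a1 (ENSMUSG00000054640) encodes the cardiac sodium/calcium exchanger. It was at 76.5, 138 and 109 CPM in A17fl/fl + NS and at 165, 173 and 169 in A17fl/fl + DOX. In the knockout it was at 106, 95.3 and 101 CPM after saline and at 113, 148 and 145 after doxorubicin. In each genotype every treated heart was above every saline heart, and Slc8a1 was alone among the 10 in this. Its level was 1.45-fold higher with doxorubicin over both genotypes (exact permutation within genotype, two-sided, p = 0.005, the smallest possible). Relative to the pump it was 5.22, 3.78 and 3.67% of the FPKM of Atp2a2 in A17fl/fl + NS, 5.96, 6.84 and 5.95% in A17fl/fl + DOX, 3.78, 3.45 and 4.37% in A17α-MHCKO + NS and 5.48, 5.99 and 6.41% in A17α-MHCKO + DOX. This ratio separated treated from saline hearts in both genotypes and was 1.52-fold higher with doxorubicin (exact permutation p = 0.005), while over both treatments it was 0.939 times as high in the knockout as in A17fl/fl (exact permutation p = 0.435). The log2 difference for doxorubicin, without A17fl/fl + NS replicate 1, went from 0.61 to 0.69 and that for the knockout from -0.0909 to -0.0097, and for the knockout after saline it turned from -0.11 to 0.0481. The sum of the cardiomyocyte markers was higher after treatment in the knockout, as given above, though single markers differed. In A17fl/fl the markers summed to 19046 to 40643 CPM after saline and 43715 to 48046 after doxorubicin. Their part in the level of Slc8a1 was not tested.

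The whole set was next compared by edgeR's quasi-likelihood test over 16101 genes in 7 contrasts. None of the 10 had an adjusted p under 0.05 in any of the 7. The same threshold was passed by 0% of all tested genes for doxorubicin in A17fl/fl, for doxorubicin in the knockout, for their difference and for doxorubicin over both genotypes, by 0.0186% for the knockout after saline, by 0.00621% for the knockout after doxorubicin and by 0.0248% for the knockout over both treatments. Counts at an unadjusted p under 0.05 are given to describe the set, and members counted so did not pass correction for the number of genes. DESeq2, which gave an adjusted p to 15321 of these genes, called 1 member, Slc8a1 for doxorubicin over both genotypes (log2 fold change 0.53, adjusted p = 0.0361), where it called 1.15% of those 15321, and called 0 members in the other 6 contrasts. The study's methods set limits of more than 1 on the size of the log2 fold change, 0.05 on the unadjusted p and 1 on mean FPKM, and with these 0 members were called for doxorubicin in A17fl/fl, against 2.82% of all genes, and 0 for the knockout after doxorubicin, against 0.205%.

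**Figure D3:**
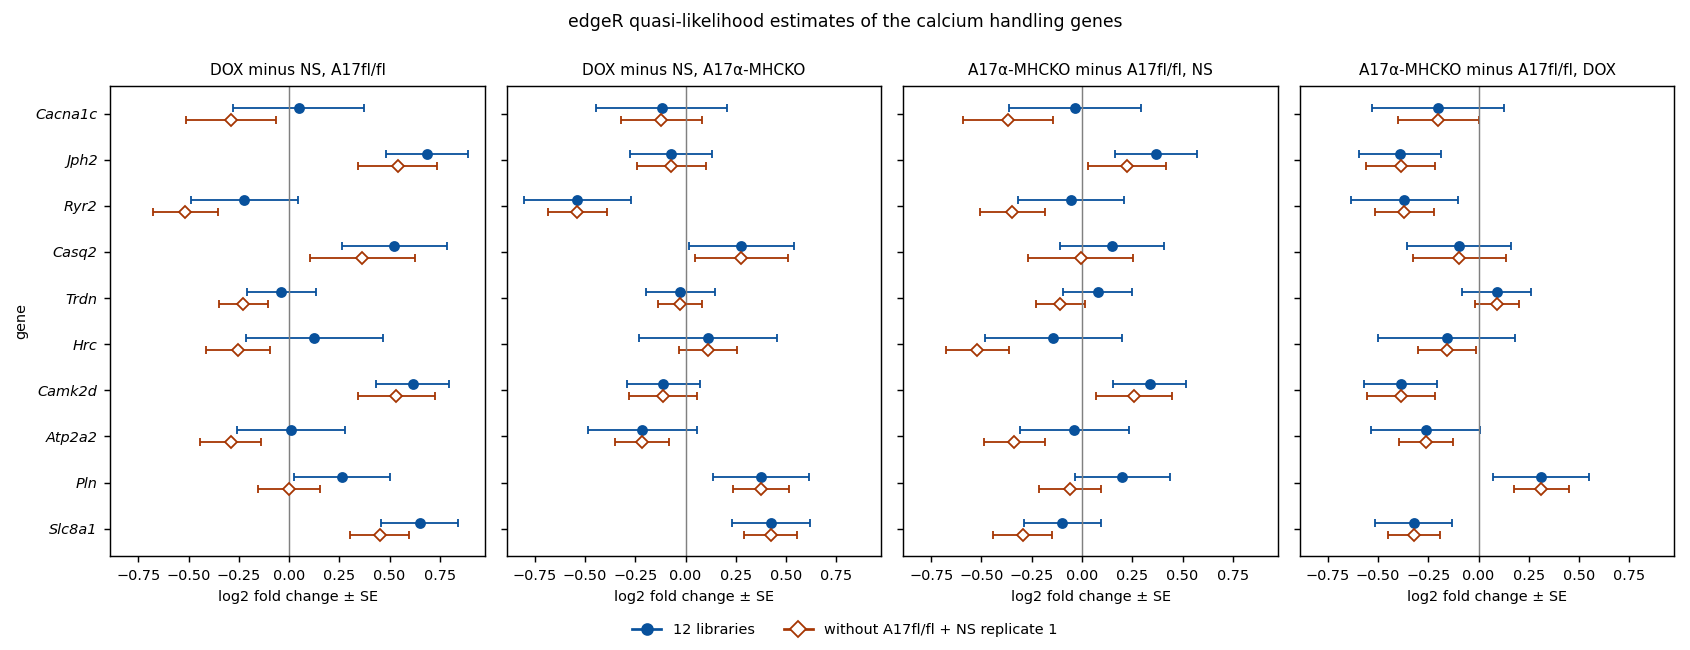
Log2 fold change ± SE of each calcium handling gene in the 4 comparisons of 3 hearts against 3, from edgeR's quasi-likelihood fit of 12 libraries (filled circles) and of 11 libraries without A17fl/fl + NS replicate 1 (open diamonds). Both comparisons that use A17fl/fl + NS, the first and the third panels, shift to the left without that library, and in the other 2 panels only the SE becomes smaller.

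Doxorubicin in A17fl/fl hearts was compared first, the setting of anthracycline cardiotoxicity with Adam17 intact. Slc8a1, Camk2d and Jph2 were higher in treated hearts, with log2 fold changes of 0.65 ± 0.19, 0.61 ± 0.18 and 0.68 ± 0.20 (SE), or 1.57-, 1.53- and 1.61-fold. These 3 had an unadjusted p under 0.05 (all with an edgeR adjusted p = 0.358), against 10.7% of all genes, and the same 3 were the members whose groups did not overlap, against 13.3%. Casq2 was at 0.52 ± 0.26, and the other 6 were between -0.22 for Ryr2 and 0.26 for Pln. The median over the 10 was 0.20 against -0.0435 over all genes. Leaving out A17fl/fl + NS replicate 1, the 3 genes were at 0.45, 0.53 and 0.54, Ryr2 was at -0.52 ± 0.16 and joined them, and the median was -0.11 with 4 members under 0.05, against 10.2% of all genes. Atp2a2 went from 0.0095 to -0.29, Hrc from 0.13 to -0.25 and Cacna1c from 0.0472 to -0.29, a change of sign in each. Without A17fl/fl + NS replicate 2, the saline heart with the highest level of both genes, Slc8a1 at 0.87 and Jph2 at 0.97 had edgeR adjusted p-values of 0.0409 and 0.0243, 2 members called against 2.38% of all genes. That fit kept A17fl/fl + NS replicates 1 and 3, where the atrial marker Myl7 was at 0 and 0.0626 CPM. The part of atrial content in it was not tested.

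Doxorubicin in A17α-MHCKO hearts gave another set of leading members. Ryr2 was lower by 31.1% (log2 -0.54 ± 0.27 SE), Slc8a1 higher by 34.2% (0.42 ± 0.19) and Pln higher by 29.6% (0.37 ± 0.24). These 3 were the members without overlap, against 16.9% of all genes. Slc8a1 alone had an unadjusted p under 0.05 (edgeR adjusted p = 0.777), where 6.42% of all genes had one. Camk2d at -0.11 and Jph2 at -0.0699, which led in A17fl/fl, overlapped here. When A17fl/fl + NS replicate 1, which is in neither group, was left out of the fit, the fold changes of these 3 were the same to the second decimal and the estimated spread became smaller, and Ryr2, Slc8a1 and Pln had an unadjusted p under 0.05, against 11.5% of all genes, with edgeR adjusted p-values of 0.272 to 0.367. The saline groups of the 2 genotypes and the treated groups are different animals, so these 2 comparisons share no library.

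The difference between the 2 doxorubicin effects was then tested directly as an interaction. Camk2d (log2 -0.72 ± 0.26 SE) and Jph2 (-0.75 ± 0.29) had a less positive response in the knockout and were under an unadjusted 0.05, 2 of 10 members against 5.99% of all genes, and both had an edgeR adjusted p of 0.828. For Ryr2 the difference was -0.32 ± 0.38, for Pln 0.11 ± 0.34 and for Slc8a1 -0.22 ± 0.27, each within its SE. In the 11 libraries without A17fl/fl + NS replicate 1 Camk2d was at -0.64 and Jph2 at -0.61, again the 2 members under 0.05, against 7.13% of all genes, while Ryr2 and Slc8a1 moved to -0.0225 and -0.0265 and Pln to 0.37 ± 0.21. Over both genotypes, doxorubicin gave 1 member under an unadjusted 0.05, against 10.7% of all genes, Slc8a1 at 0.54 ± 0.14 (edgeR adjusted p = 0.301). Pln was at 0.32 and Casq2 at 0.40, with exact permutation p-values of 0.03 and 0.055 and adjusted edgeR p-values of 0.515 and 0.469. The members under 0.05 were in those 11 libraries Ryr2 at -0.53 ± 0.11 (edgeR adjusted p = 0.0985), Slc8a1 at 0.44 ± 0.0989 (adjusted p = 0.125) and Atp2a2 at -0.25, 3 members against 15% of all genes.

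The knockout after saline compares hearts with Cre and loss of Adam17, together, against floxed hearts without the drug. No member was under an unadjusted 0.05, against 10.1% of all genes, and no member was without overlap, against 10.9%. Camk2d at 0.34 ± 0.18 (SE) and Jph2 at 0.37 ± 0.20 were the farthest from 0, and the other 8 were between -0.14 for Hrc and 0.20 for Pln. Without A17fl/fl + NS replicate 1 the median over the 10 went from 0.0219 to -0.20, Hrc was at -0.52 and Atp2a2 at -0.34, 2 members under 0.05 against 10.2% of all genes, with edgeR adjusted p-values of 0.29 and 0.479.

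The knockout after doxorubicin compared the 2 treated groups, neither of which holds the library that stood apart. Ryr2 was lower by 22.6%, Atp2a2 by 16.7%, Slc8a1 by 20.0%, Camk2d by 23.5% and Jph2 by 23.6%, and Pln was higher by 24.0%, and these 6 members did not overlap between genotypes, against 14.1% of all genes. None had an unadjusted p under 0.05, against 2.7% of all genes, the smallest being Camk2d (log2 -0.39 ± 0.18 SE, edgeR adjusted p = 1). With A17fl/fl + NS replicate 1 out of the fit, which again changed the spread and not the groups, 5 members were under 0.05, namely Ryr2, Slc8a1, Camk2d, Pln and Jph2, against 5.85% of all genes, each with an edgeR adjusted p of 0.823. The median over the 10 was -0.23 and that over all genes 0.0067. Over both treatments, the knockout gave 0 members under 0.05, against 6.65% of all genes. Without A17fl/fl + NS replicate 1 it gave 4, against 10.3%, which were Ryr2 at -0.36, Hrc at -0.34, Slc8a1 at -0.31 and Atp2a2 at -0.30, with edgeR adjusted p-values of 0.39 to 0.394. Adam17 in the same 11 libraries was at -0.52 ± 0.0855 (adjusted p = 0.128).

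The members were also compared with each other across libraries, as levels centred on each gene's mean. In A17fl/fl + NS replicate 1 their mean was -0.75 on the log2 scale and every member was between -1.23 and -0.45, and the other 11 libraries had means between -0.14 and 0.26. In A17fl/fl + NS replicate 3 they diverged, with Casq2 at -0.62 and Jph2 at -0.56 and Cacna1c at 0.55 and Ryr2 at 0.51. In A17α-MHCKO + DOX replicate 1 Ryr2 was at -0.59 and Pln at 0.59. That heart also differed in genes outside the set. Ttn was at 894 CPM in it, against 1429 or more in every other library but A17fl/fl + NS replicate 1. Myl3, at 6977 CPM, was at its highest there. Whether these shifts belong together was not tested. Pearson's r of each member with the mean of the other 9 was 0.46 to 0.92 over 12 libraries, highest for Hrc, and -0.39 for Pln to 0.67 for Hrc over 11. The genes outside the set whose level followed the mean of the 10 most closely over 12 libraries, of 14450 compared, were Myh6, the α-myosin heavy chain, at r = 0.985, then Ppm1l at 0.971, Ppp1r12b at 0.97, Ank2, the membrane scaffold ankyrin B, at 0.969, and Phtf2 at 0.969. Over 11 libraries they were Tecpr2 at 0.961, Myh6 at 0.935, Prkar2a, a regulatory subunit of protein kinase A, at 0.911, Pcdhgb6 at 0.903 and Copa at 0.892. The points of these correlations share libraries, depth and tissue makeup, and they are descriptions.

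**Figure D4:**
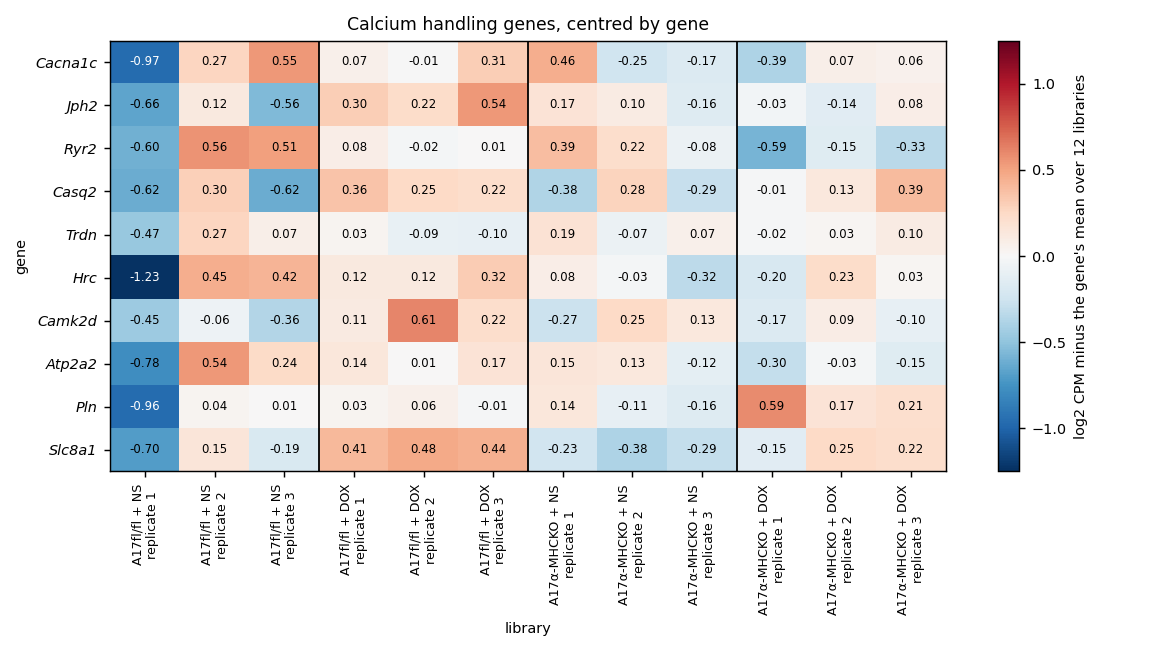
Log2 CPM of each calcium handling gene (rows) in each library (columns), minus the gene's mean over 12 libraries, with red above and blue below that mean. The first column, A17fl/fl + NS replicate 1, is below the mean for all 10 genes, from -0.45 to -1.23, and the Slc8a1 row is positive in the 3 A17fl/fl + DOX columns and negative in the 3 A17α-MHCKO + NS columns.

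Between genes, levels can be compared only per length of transcript. In FPKM the medians over 12 libraries were 889 for Atp2a2, 163 for Hrc, 124 for Casq2, 106 for Jph2, 92.3 for Pln, 42.2 for Slc8a1, 30.8 for Ryr2, 14.4 for Trdn, 4.98 for Cacna1c and 1.41 for Camk2d. Atp2a2 was first, and Trdn, Cacna1c and Camk2d ranked 8, 9 and 10, in every library. Hrc, Casq2, Jph2 and Pln changed places among ranks 2 to 5, as did Slc8a1 and Ryr2 in ranks 6 and 7. The order rests on the lengths behind the FPKM, which were 46777 bases for Camk2d and 2934 for Slc8a1, while the longest coding transcripts of these genes in GENCODE M21 are 5524 and 18464 bases. Per kilobase of the longest coding transcript, mean levels were 1845 CPM for Atp2a2, 309 for Pln, 195 for Hrc, 182 for Casq2, 121 for Jph2, 61.9 for Ryr2, 36.4 for Trdn, 12.4 for Cacna1c, 12.3 for Camk2d and 6.95 for Slc8a1. Pln went from rank 5 to 2 and Slc8a1 from 6 to 10, so the 2 ratios above can be read between libraries but their absolute percentages follow these lengths. Pln shares 1644 exonic bases with an antisense gene, Gm47644, which had 60 to 346 counts per library against 6233 or more for Pln. It shares 141 with antisense Cep85l, which had 238 to 608. Atp2a2 shares 83 with antisense Gm43361, which had 3 to 47 counts against 81626 or more. Slc8a1, with 1326 or more counts, shares 296 with antisense AC122399.1, whose counts were not available, and 8 with Gm11096, which had 0.

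The calcium cycle was then widened to 8 lists of 96 further genes, of which 92 were tested. None had an edgeR adjusted p under 0.05 in any contrast, and the shares under an unadjusted 0.05 were 8.7% for doxorubicin in A17fl/fl (5 higher, 3 lower), 13% for doxorubicin in the knockout (10 higher, 2 lower), 7.61% for the knockout after saline (1 higher, 6 lower), 2.17% for the knockout after doxorubicin (1 each way), 5.43% for the interaction (5 higher), 13% for doxorubicin over both genotypes (9 higher, 3 lower) and 5.43% for the knockout over both treatments (1 higher, 4 lower). These stand beside the percentages of all genes given above. The shares without A17fl/fl + NS replicate 1 were, in the same order, 8.7%, 20.7%, 12%, 7.61%, 12%, 25% and 14.1%, and again no gene was called. Without replicate 2 of that group, edgeR called 7 of the 92 for doxorubicin in A17fl/fl, against 2.38% of all genes, and 8 for the knockout after saline, against 4.09% of all genes. That fit kept A17fl/fl + NS replicate 1, which stood apart, and replicate 3. In these the atrial marker Myl7 was at 0 and 0.0626 CPM, and Sln was at 0 in both. Treatment and genotype cannot be told apart from atrial content in these calls. One list holds 6 myofilament genes, of which Tnnc1 encodes the calcium-binding troponin C and the others the troponins I and T, tropomyosin, myosin-binding protein C and the light chain Myl2, which do not all bind calcium. All 6 had positive values for doxorubicin in each genotype, against 44.5% of all genes in A17fl/fl and 50.5% in the knockout. Over both genotypes 5 of the 6 were under an unadjusted 0.05, against 10.7% of all genes, and 4 without A17fl/fl + NS replicate 1, against 15%. The other lists had 0% to 15% under 0.05 over both genotypes with all libraries. In the knockout 4 were, with and without that replicate, against 6.42% and 11.5% of all genes. In A17fl/fl 2 were with it and 0 without it, against 10.7% and 10.2%. Tnnc1 was at 1217, 1283 and 1355 CPM in A17fl/fl + NS, 1418, 1715 and 1518 in A17fl/fl + DOX, 1237, 1082 and 839 in A17α-MHCKO + NS and 2153, 1776 and 1735 in A17α-MHCKO + DOX. Treated hearts were above saline hearts without overlap in both genotypes, and the log2 fold change over both was 0.56 ± 0.12 SE (edgeR adjusted p = 0.207, exact permutation p = 0.005, the smallest possible). Myl2, the ventricular regulatory light chain, was at 0.75 ± 0.20 over both genotypes, with the same exact permutation p of 0.005 and an adjusted p of 0.301. Both genes were named by their small unadjusted p. The exact p-values use the same values, are not adjusted over the 92 genes and add no support. Tnnc1 was at 0.54 and Myl2 at 0.64 without A17fl/fl + NS replicate 1. The sums of the cardiomyocyte markers given above were also higher after doxorubicin, though single markers differed, and their part was not tested. The atrial markers summed to 3776 to 8299.8 CPM in A17α-MHCKO + NS and to 1796 to 3956 in A17α-MHCKO + DOX. In A17fl/fl they summed to 343 to 7209 CPM after saline and to 1730 to 4787 after doxorubicin. Their part in the level of Myl2 was not tested.

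Among genes of release, uptake and signalling, the beta-adrenergic receptor gene Adrb1 was at 9.0, 20.7 and 19.8 CPM in A17fl/fl + NS and at 28.6, 31.3 and 30.7 in A17fl/fl + DOX, with 0.61 ± 0.18 (log2, SE) for doxorubicin over both genotypes (edgeR adjusted p = 0.324), and 0.46 without A17fl/fl + NS replicate 1. Srl, which encodes the store protein sarcalumenin, was at 0.74 ± 0.30 for doxorubicin in A17fl/fl and at 0.49 without that library, and S100a1, a calcium-binding partner of the release channel, was at 0.46 ± 0.20 for doxorubicin in the knockout, both with overlapping groups. Tmem38b, a cation channel of the store, was at 92.9, 32.0 and 58.4 CPM in A17fl/fl + NS and at 26.4, 27.1 and 29.6 in A17fl/fl + DOX, and the phosphodiesterase gene Pde4b was at 91.6, 34.8 and 28.9 and at 26.8, 28.9 and 20.4. Both were highest in A17fl/fl + NS replicate 1, and without it their log2 fold changes for doxorubicin in A17fl/fl went from -1.14 to -0.71 and from -1.03 to -0.33. Ppp1r3a, a targeting subunit of protein phosphatase 1, was at -0.72 ± 0.18 for the knockout after saline and at -0.50 ± 0.18 for doxorubicin in A17fl/fl (log2, SE), and at -0.72 and -0.51 without that library. It stood at 159, 151 and 170 CPM in A17fl/fl + NS and between 72.0 and 131 in the other 9 hearts, the lowest saline A17fl/fl heart lying above all of them.

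The wider genes with the smallest p for genotype are given next, none of them past adjustment. Their exact permutation p-values use the same values by which they were picked. They are not adjusted over the 92 genes and add no support. Slc8b1, the mitochondrial sodium/calcium exchanger, was at 14.5, 12.7 and 13.2 CPM in A17fl/fl + NS, 11.3, 11.8 and 13.3 in A17fl/fl + DOX, 9.51, 11.2 and 11.7 in A17α-MHCKO + NS and 6.17, 9.03 and 10.2 in A17α-MHCKO + DOX. Within each treatment every knockout heart was below every A17fl/fl heart, and over both treatments the log2 fold change was -0.42 ± 0.13 SE (edgeR adjusted p = 0.736, exact permutation p = 0.005) and -0.39 without A17fl/fl + NS replicate 1. Stim2, a sensor of the calcium content of the store, was at -0.30 ± 0.10 (exact permutation p = 0.01) and at -0.34 without that library, and Micu2, a regulator of mitochondrial calcium uptake, was at 0.32 ± 0.13 for the knockout after doxorubicin. Ppp1r1a, a phosphatase inhibitor, was at 0.73 ± 0.30 over both treatments and at 0.59 without that library, from levels of 0.981 to 4.53 CPM. In the knockout, doxorubicin hearts had Ppp2r5a, a subunit of protein phosphatase 2A, at -0.34 ± 0.13, and Atp2a1, the skeletal muscle pump, at -2.13 ± 0.96. The atrial markers summed to 3776 to 8299.8 CPM in A17α-MHCKO + NS and to 1796 to 3956 in A17α-MHCKO + DOX, and their part in the level of Atp2a1 was not tested. Itpr1, the inositol trisphosphate receptor, Cacna1g, a T-type channel, and Cacnb1, an accessory channel subunit, were named by the same rule and had no unadjusted p under 0.05. Gm34302, the gene of the micropeptide DWORF that activates the pump, was at 0.377 to 2.27 CPM in all 12 libraries, too few counts to read its fold changes from.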

How the data were processed

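RNA of 12 mouse hearts, 3 in each of 4 groups, was sequenced by stranded paired-end mRNA libraries. The submitters' processing notes name CASAVA 1.8, HISAT2, SAMtools 1.3.1, edgeR and GRCm39, and the study's methods name StringTie. Gene counts and FPKM were deposited by the authors, the counts unnormalized and the FPKM scaled by the authors to library size and gene length. Whether counting used strand is not given in the sources used here.

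The counts were filtered with filterByExpr, leaving 16101 genes, scaled by TMM and tested by edgeR 4.0.16 (quasi-likelihood, 1 mean per group, 7 contrasts) in R 4.3.3, with Benjamini-Hochberg adjustment over all genes tested. Log2 levels used a prior count of 2. Single values had an exact permutation test of samples on the log2 scale, two-sided. Correlations used the log2 levels. FPKM were used for levels between genes and for ratios within a library. A chi-square test of counts between libraries of a group found no library deposited more than once. The study's text gives each group as 3 mice, and the labels number the samples without naming an animal. Alternatives were other normalizations and filters, DESeq2 1.42.0, the groups of a contrast alone, a replicate block and leaving out each library.

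The members and gene lists were chosen with earlier results of these data known. Named were the 10 members, Adam17, up to 2 genes of the wider lists per direction and contrast by smallest unadjusted p, and the 5 genes nearest to the members' mean, with and without A17fl/fl + NS replicate 1.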

Additional observations from a re-analysis of the deposited data

How the results depend on the processing

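Of 460 member log2 fold changes recomputed with all libraries, 453 kept their sign. Without A17fl/fl + NS replicate 1, 58 of 70 did, and without one of the other libraries 713 of 770. Those that turned with all libraries were all small, namely Trdn in the interaction (-0.012 with upper quartile scaling, -0.0042 with 10 counts required in every library, -0.0029 with no filter and -0.0013 with the replicate block), Jph2 for the knockout over both treatments (0.0040 with upper quartile scaling), and Atp2a2 and Cacna1c for the knockout after saline (0.011 and 0.043 with the replicate block). The deviations of same-numbered libraries had r from -0.10 to 0.22 over 18 pairs, 3 of them over 0.1. Those of libraries with different numbers had r from -0.26 to 0.32 over 36 pairs, 4 of them over 0.1. The range for same-numbered libraries lay within that for different numbers. Because r was low in all pairs and the ranges overlap, these values cannot decide whether the numbers pair the mice.

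The count of members at an unadjusted p under 0.05 for doxorubicin in the knockout was 0 with RLE or upper quartile scaling, with 10 counts, with no filter and with the replicate block, and 2 with the groups of the contrast alone and by DESeq2. For doxorubicin over both genotypes it was 2 with no filter, 3 with the replicate block and 4 by DESeq2, which called 1 after adjustment. With the replicate block it was 1 for the knockout after saline and 1 for the knockout after doxorubicin, where the 2 groups alone gave 4. Of the wider genes, the count in the interaction was 3 with upper quartile scaling and with 10 counts, the count for the knockout after doxorubicin was 1 with the replicate block and 8 with the groups alone, and the groups alone gave 3 for doxorubicin in A17fl/fl, 20 for doxorubicin in the knockout and 3 for the knockout after saline. DESeq2 called 1 wider gene in each of these last 3 contrasts and 3 for doxorubicin over both genotypes. Except for the 1.15% that DESeq2 called for doxorubicin over both genotypes, the share of all genes with each setting is not given here. These counts are therefore not read as results about the set. The cause of these shifts was not tested.

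Leaving out 1 library moved the share of all genes under an unadjusted 0.05 as well as the counts below. Without A17fl/fl + NS replicate 1 that share went from 2.7% to 5.85% for the knockout after doxorubicin. For doxorubicin over both genotypes it went from 10.7% to 15%. The counts are therefore ranges over fits and are not read as results about the set. Their lowest and highest values follow. Members called for doxorubicin in A17fl/fl were 0 to 2. Members at an unadjusted p under 0.05 were 3 to 4 for doxorubicin in A17fl/fl, 0 to 3 for doxorubicin in the knockout, 0 to 3 for the knockout after saline, 0 to 5 for the knockout after doxorubicin, 1 to 3 for the interaction, 1 to 5 for doxorubicin over both genotypes and 0 to 4 for the knockout over both treatments. Wider genes called were 0 to 7, 0, 0 to 8, 0, 0 to 4, 0 to 4 and 0 to 2 in the order of doxorubicin in A17fl/fl, doxorubicin in the knockout, knockout after saline, knockout after doxorubicin, interaction, doxorubicin over both genotypes and knockout over both treatments, and those at an unadjusted p under 0.05 were 3 to 26, 5 to 19, 5 to 24, 1 to 7, 2 to 18, 7 to 23 and 3 to 17. The members' medians were -0.11 to 0.40, -0.0708 to 0.0900, -0.20 to 0.24, -0.30 to -0.13, -0.47 to 0.0261, 0.0583 to 0.28 and -0.18 to 0.0154 in the same order.

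For single members the values that turned were, for doxorubicin in A17fl/fl, Atp2a2 from -0.29 to 0.29, Cacna1c from -0.29 to 0.35, Hrc from -0.25 to 0.37 and Trdn from -0.23 to 0.13. For doxorubicin in the knockout they were Cacna1c from -0.25 to 0.14, Hrc from -0.0041 to 0.21 and Trdn from -0.0955 to 0.0403. For the knockout after saline they were Ryr2 from -0.35 to 0.13, Atp2a2 from -0.34 to 0.24, Pln from -0.0615 to 0.36, Casq2 from -0.0708 to 0.53, Cacna1c from -0.37 to 0.27, Slc8a1 from -0.29 to 0.12, Hrc from -0.52 to 0.0994, Trdn from -0.11 to 0.24 and the ratio of Slc8a1 to Atp2a2 from -0.21 to 0.0481. In the interaction they were Atp2a2 from -0.51 to 0.0748, Pln from -0.0493 to 0.37, Cacna1c from -0.47 to 0.17, Hrc from -0.26 to 0.36 and Trdn from -0.15 to 0.20. For doxorubicin over both genotypes they were Atp2a2 from -0.25 to 0.0392, Cacna1c from -0.20 to 0.12, Hrc from -0.0707 to 0.24 and Trdn from -0.13 to 0.0503. For the knockout over both treatments they were Casq2 from -0.0856 to 0.22, Cacna1c from -0.28 to 0.0360, Camk2d from -0.0739 to 0.0576, Jph2 from -0.0824 to 0.13 and Trdn from -0.0085 to 0.17.

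Ranking members by CPM per kilobase of the longest coding transcript, chosen after seeing the data, moved 9 of 10 ranks, to 2 for Pln, 3 for Hrc, 4 for Casq2, 5 for Jph2, 6 for Ryr2, 7 for Trdn, 8 for Cacna1c, 9 for Camk2d and 10 for Slc8a1. Depth did not limit the members, which had 822 or more counts in every library, and 3 mice a group did limit the exact tests.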
